A study of Sparus aurata with 9 samples.

Results

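The FoxO transcription factors of cultured gilthead sea bream (Sparus aurata) myoblasts were followed through amino acid and Igf-1 treatment. Members were taken as every gene whose symbol in the deposited mRNA tables is foxo1, foxo3, foxo4 or foxo6, with or without a paralog letter. Of the 27159 genes in the count table, 17082 carried a symbol and 6 met this rule: foxo1a, FOXO1, foxo3b, foxo4, foxo6a and foxo6b. All 6 had enough counts to be tested.

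Messenger RNA was sequenced in 9 libraries, 3 in each of 3 groups. All cells were primary muscle cells at day 8 of culture, and all were first held for 12 h in a salt solution with glucose and vitamins but no amino acids. CTR cells then stayed in this solution, for 36 h in all. AA cells were given DMEM for 24 h, which is a complete culture medium and so brings more than amino acids, and Igf-1 cells spent these 24 h in the amino acid-free solution with sea bream Igf-1 and albumin as its carrier. The labels do not tie a library to a culture, so the p-values below measure the spread between these libraries only. In bulk RNA, fewer cells that carry a transcript cannot be told apart from less transcript per cell.

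FoxO proteins are forkhead factors that bind DNA and mostly activate genes of protein breakdown, autophagy, cell cycle arrest, stress defence and fasting metabolism. When insulin or Igf-1 activates the kinase Akt through PI3-kinase, Akt phosphorylates FoxO proteins, 14-3-3 proteins bind them and exportin carries them out of the nucleus. In mammalian muscle, FoxO1 and FoxO3 drive the atrophy ubiquitin ligases atrogin-1 and MuRF1 during fasting. This control acts on the protein, whereas the measurements here are of messenger RNA.

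The genes matched RefSeq records of the species by their identifiers, and symbol and description did not always agree. ENSSAUG00010006340 (foxo1a) and ENSSAUG00010025060 (FOXO1) are both described as forkhead box protein O1-A-like. ENSSAUG00010009595 (foxo3b) is described as an O3 protein and ENSSAUG00010013801 (foxo6b) as O6-like. ENSSAUG00010002619 carries the symbol foxo4 in the files and in RefSeq but is described as O6-like, and ENSSAUG00010016659 (foxo6a) is described as O3-like. A further gene, ENSSAUG00010014836, has no symbol in the files and fell outside the rule. RefSeq names it foxo3a, and its values are given at the end. In mammals FoxO1 and FoxO3 are broadly expressed, FoxO4 is abundant in muscle, and FoxO6 is best known from brain and remains more in the nucleus than the others.

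The libraries held 48725967 to 67887824 estimated counts. Low values gathered at multiples of 4, with 5737 entries of exactly 4 against 938 of 5, so a count here is not a single read pair and small counts are less precise than they look. The 9 muscle markers summed to 1361 to 1536 FPKM in CTR, 2274 to 2707 in AA and 1877 to 2003 in Igf-1. Fibroblast markers summed to 1962 to 2424, 2326 to 3082 and 2349 to 2664 FPKM over 6 genes. These sums lay wholly above the muscle sums in CTR and Igf-1 and overlapped them in AA. The 5 endothelial markers summed to 2.88 to 3.94, 4.96 to 9.07 and 5.40 to 7.05 FPKM, the 5 leukocyte markers to 33.0 to 49.7, 58.9 to 80.8 and 43.4 to 70.1, and the 9 pigment cell markers to 13.6 to 14.8, 6.17 to 8.14 and 9.58 to 11.8, with dct at 0 in AA. The 7 neural markers summed to 11.2 to 21.3, 13.0 to 28.5 and 14.3 to 18.6 FPKM with 1 of them at 0 throughout, and the adipocyte marker cidec lay at 12.8 to 19.4, 10.4 to 15.3 and 14.8 to 21.2. The summed muscle, endothelial and leukocyte markers thus lay higher and the summed pigment markers lower in AA than in CTR, with no overlap. Only some single markers passed both thresholds in edgeR. Higher were 2 of 9 muscle, 2 of 6 tested neural, 1 of 5 endothelial and 1 of 5 leukocyte markers. Lower were 2 of 8 tested pigment markers, and 1 of 6 fibroblast markers was lower by adjusted p alone. Over all tested genes, 4.83% passed both thresholds upward and 3.79% downward. Members went both ways, with 1 muscle, 1 endothelial, 1 neural and 2 leukocyte markers below 0, among them csf1ra at −0.79 (edgeR adjusted p = 0.0464). The part of these cells in the FoxO values was not tested.

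Levels were compared between genes as FPKM, which is scaled to gene length. Over the 9 libraries, foxo1a averaged 6.99 ± 1.74 FPKM (SD, n = 9) and foxo3b 6.88 ± 2.25, which placed them at percentiles 65.5 and 65.1 of all tested genes. Next came foxo4 at 4.47 ± 2.14 FPKM (percentile 56.3) and foxo6a at 1.57 ± 0.76 (percentile 37.0). FOXO1 at 0.633 ± 0.509 FPKM (percentile 24.8) and foxo6b at 0.213 ± 0.138 (percentile 13.2) were the scarcest. The FoxO transcript pool of these cells was therefore mostly foxo1a, foxo3b and foxo4, and the 2 genes described as O1-A-like differed in level. foxo1a exceeded foxo3b in 5 of 9 libraries only, so these neighbours had no fixed order. foxo3b exceeded foxo4, foxo4 exceeded foxo6a and foxo6a exceeded FOXO1 in 9 of 9 libraries each, and FOXO1 exceeded foxo6b in 8 of 9, the exception being AA replicate 2. The range of each gene over the 9 libraries nevertheless overlapped that of its neighbour in the order.

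**Figure D1:**
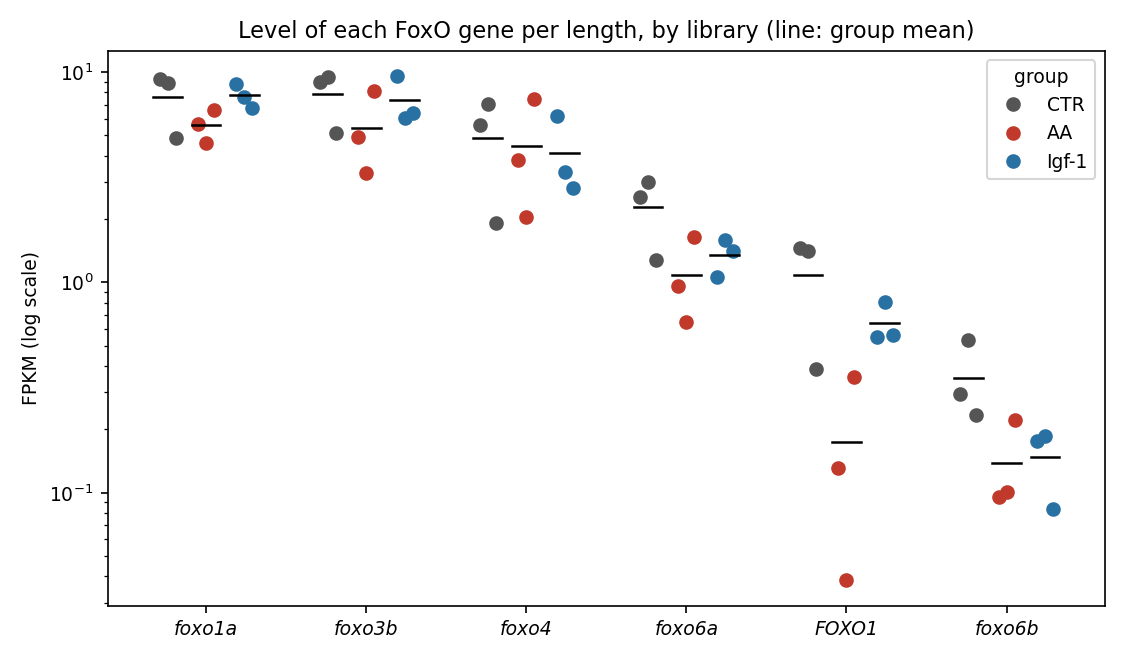
FPKM of the 6 FoxO genes on a log axis, one point per library and one colour per group, with genes ordered by mean FPKM. The points run from about 7 FPKM on average for foxo1a (6.99) and foxo3b (6.88) down to 0.213 for foxo6b, and the AA points of FOXO1 lie below its CTR and Igf-1 points, with the highest AA point (0.354) close to the lowest CTR point (0.388).

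Summed FoxO FPKM was 28.1, 30.3 and 13.8 in CTR, 15.6, 10.7 and 24.3 in AA, and 26.3, 19.6 and 18.0 in Igf-1. The sums overlapped between all groups, since CTR replicate 3 was as low as the AA libraries and AA replicate 3 lay among the CTR and Igf-1 libraries. Within the sum, foxo1a took on average 32.3%, 35.3% and 36.6% in CTR, AA and Igf-1, in this order, and foxo3b 33.5%, 31.9% and 34.2%. foxo4 took 19.1%, 24.7% and 18.7%. The share of foxo6a was 9.07% to 9.91% in CTR and 6.05% to 6.78% in AA, and that of FOXO1 2.81% to 5.17% in CTR, 0.357% to 1.46% in AA and 2.09% to 4.13% in Igf-1. foxo6b held 1.04% to 1.75% in CTR, 0.613% to 0.938% in AA and 0.464% to 0.946% in Igf-1. These 3 minor genes had lower shares in AA than in CTR with no overlap. In Igf-1 the shares of foxo6a, at 4.02% to 8.09%, and of foxo6b also lay wholly below CTR, whereas FOXO1 overlapped with CTR and lay wholly above AA. A share also moves with the other genes in the sum, and these ranges have no counterpart over all tested genes. In FPKM itself, foxo6a ran from 1.27 to 3.01 in CTR, 0.649 to 1.65 in AA and 1.06 to 1.59 in Igf-1, so both treated groups overlapped with CTR. Normalized counts, which are scaled differently, are given below.

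The first comparison asked what supplying amino acids to restricted cells did to FoxO transcripts. FOXO1 fell 6.63-fold and foxo6a 2.25-fold from CTR to AA. These 2 of the 6 genes passed both thresholds, an adjusted p of at most 0.05 in the quasi-likelihood test of edgeR together with a change of at least 1 either way on the log2 scale, and none rose past them. Over all 17687 tested genes, 8.62% passed both thresholds, 4.83% upward and 3.79% downward. Another gene, foxo1a, passed on adjusted p alone, which makes 3 of 6 lower, against 7.74% of all tested genes. At an unadjusted p under 0.05 there were 5 of 6, against 28.2% of tested genes. All 6 log2 fold changes were below 0, as for 50.9% of tested genes, with a median of −0.91 against −0.01 over all tested genes. In 4 of 6 genes every AA library lay below every CTR library, against 16.0% of tested genes. The 6 genes were chosen with earlier results known and shared deviations of single libraries, as described below. These counts, and those of the later comparisons, therefore carry no test.

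FOXO1, the scarcer of the pair of O1-A-like genes, had normalized counts of 233, 219 and 82.3 in CTR, 22.5, 7.24 and 49.3 in AA, and 85.6, 139 and 100.2 in Igf-1. All AA libraries lay below all libraries of the other groups, and CTR replicate 3 lay below all Igf-1 libraries. The means of CTR, AA and Igf-1 were 178 ± 83.1 (SD, n = 3), 26.4 ± 21.3 and 108 ± 27.7, so that AA kept 15.1% of the CTR level in the fit. The log2 fold change from CTR to AA was −2.73 (SE 0.63, edgeR quasi-likelihood adjusted p = 0.0156), with a 95% interval of −4.14 to −1.32. The unscaled AA values were 18, 7 and 65 estimated counts, so the size of the fall rests on few reads. Without CTR replicate 1 the adjusted p for FOXO1 was 0.0522, without CTR replicate 2 it was 0.0501 and without AA replicate 1 it was 0.0678, with log2 fold changes of −2.49, −2.56 and −2.61. With limma on log2(FPKM + 1), a scale that shrinks low genes, FOXO1 was at −0.79.

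foxo6a, described as O3-like despite its symbol, had normalized counts of 573, 655 and 379.7 in CTR, 227, 165 and 322 in AA, and 233, 384 and 354 in Igf-1. The AA libraries all lay below CTR, the nearest being AA replicate 3 and CTR replicate 3, and overlapped with Igf-1. The means were 536 ± 141 (SD, n = 3), 238 ± 79.1 and 324 ± 79.8. The log2 fold change from CTR to AA was −1.17 (SE 0.32, edgeR adjusted p = 0.0326), with a 95% interval of −1.88 to −0.46. The call was lost in a fit of only the 2 groups compared (edgeR adjusted p = 0.0672) and with limma on log2(FPKM + 0.1) (adjusted p = 0.137). Leaving out a library ended this call in 6 of 9 cases. The adjusted p of foxo6a was then 0.0893 without CTR replicate 1, 0.112 without CTR replicate 2, 0.115 without AA replicate 1, 0.0871 without AA replicate 2, 0.0526 without Igf-1 replicate 2 and 0.0531 without Igf-1 replicate 3.

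foxo1a, one of the 2 most abundant FoxO genes, had normalized counts of 2958, 2749 and 2073 in CTR, 1889.6, 1668 and 1841 in AA, and 2767, 2640.1 and 2432 in Igf-1. Every AA library was below every library of CTR and Igf-1, which overlapped each other. From a CTR mean of 2593 ± 462 (SD, n = 3) to an AA mean of 1799.6 ± 116, the log2 fold change was −0.53 (SE 0.16, edgeR adjusted p = 0.0484), a 1.44-fold difference that stayed under the fold threshold. Leaving out any library but CTR replicate 3 raised the adjusted p of foxo1a above 0.05, to between 0.0761 and 0.159, the highest without CTR replicate 1. With all libraries it was also above 0.05 with RLE scaling, with no filter on low counts and with replicate numbers as a block. The same held in a fit of only the 2 groups compared and with limma at both FPKM pseudocounts.

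For the other 3 genes the edgeR test left AA and CTR unresolved. foxo3b, the O3 gene, had normalized counts of 1265, 1297 and 962 in CTR and 725, 529 and 994 in AA, where AA replicate 3 reached into the CTR range. Its log2 fold change was −0.65 (SE 0.25, edgeR adjusted p = 0.116), with a 95% interval of −1.20 to −0.09 before adjustment, and without AA replicate 3 the foxo3b value was −0.91 (adjusted p = 0.037). This was the 1 of 9 edgeR fits with a library left out in which foxo3b passed, and its adjusted p reached 0.287 in the others. foxo6b, the scarcest gene, had 40.8, 71.6 and 43.3 in CTR and 13.8, 15.5 and 26.5 in AA, with no overlap. Its log2 fold change of −1.46 (SE 0.59, edgeR adjusted p = 0.129) had an interval of −2.76 to −0.17. foxo4 had 1016, 1239 and 461 in CTR and 721, 418 and 1170.3 in AA, which overlapped almost wholly. Its log2 fold change was −0.23 (SE 0.43, edgeR adjusted p = 0.796), with an interval of −1.20 to 0.73, and it became 0.06 without CTR replicate 2 and also without AA replicate 2.

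**Figure D2:**
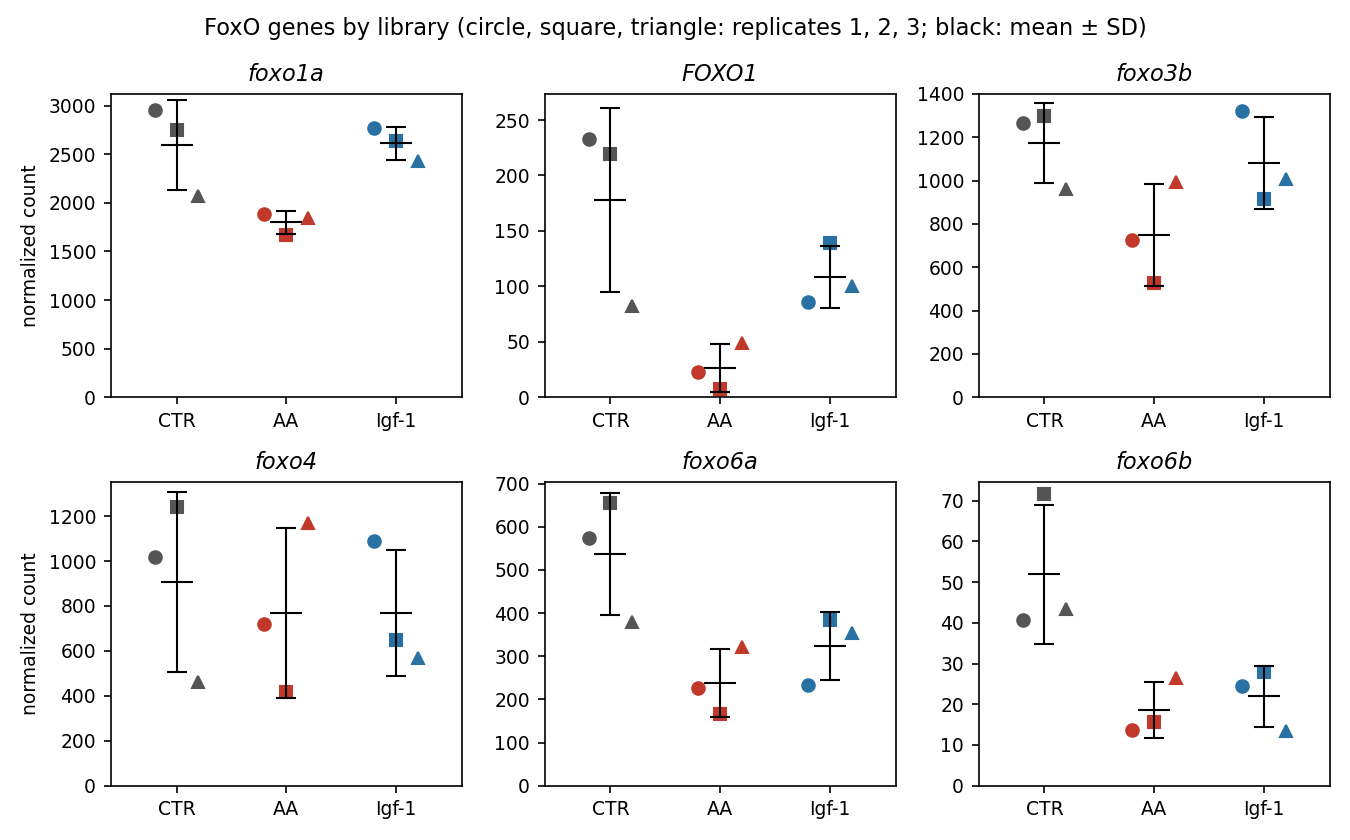
Normalized counts of each FoxO gene in the 9 libraries, one panel per gene, with points for libraries and, in black, the group mean with bars of 1 SD either side (n = 3). FOXO1, foxo6a, foxo6b and foxo1a show all AA points below all CTR points, whereas the points of foxo4 and foxo3b overlap.

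The second comparison asked whether Igf-1 without amino acids changed the same transcripts. No FoxO gene passed the adjusted p in the edgeR test, with or without the fold threshold, where 0.260% of all tested genes passed both thresholds and 0.283% the adjusted p. At an unadjusted p under 0.05 there was 1 FoxO gene of 6, against 9.11% of all tested genes, and DESeq2 and limma called 0. This comparison called 46 genes in the whole table, so few genes of any kind passed.

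Of the FoxO genes, foxo1a and foxo3b had the narrowest intervals. foxo1a averaged 2613 ± 169 normalized counts (SD, n = 3) in Igf-1 and 2593 ± 462 in CTR, a log2 fold change of 0.01 with a 95% interval of −0.34 to 0.36. foxo3b had 1323, 917 and 1006 in Igf-1, with a log2 fold change of −0.12 (SE 0.25) and an interval of −0.67 to 0.43. foxo4 had 1091, 650.3 and 568 in Igf-1 and a log2 fold change of −0.24 (SE 0.43), with an interval of −1.20 to 0.73. A doubling or halving of foxo1a or foxo3b lay outside these intervals, whereas for foxo4 a halving lay inside. Some values changed sign with single libraries: foxo1a was at −0.13 without CTR replicate 3 and −0.03 without Igf-1 replicate 1, and foxo4 at 0.06 without CTR replicate 2.

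The scarcer genes had lower means in Igf-1 than in CTR without passing the adjusted p. foxo6b had 24.4, 27.8 and 13.5 normalized counts in Igf-1, and it was the 1 gene of 6 with all Igf-1 libraries below all CTR libraries, against 7.88% of tested genes. Its log2 fold change was −1.24 (SE 0.58, edgeR adjusted p = 0.575), with an interval of −2.53 to 0.05. For foxo6a the log2 fold change was −0.73 (SE 0.32, edgeR adjusted p = 0.522). For FOXO1 it was −0.72 (SE 0.59, edgeR adjusted p = 0.856), with an interval of −2.02 to 0.58, and CTR replicate 3 lay among or below the Igf-1 libraries in both genes. Below 0 were 5 of 6 log2 fold changes, as for 50.6% of tested genes, and the median over the 6 genes was −0.48, against −0.0045 over all tested genes.

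AA and Igf-1 were then compared directly, since a call against CTR in one treatment and not in the other does not show that the treatments differ. In edgeR 0 of 6 FoxO genes passed, where 4.33% of all tested genes passed both thresholds and 8.37% the adjusted p. Below 0 were 5 of 6 log2 fold changes, against 52.4% of tested genes, and 2 genes had an unadjusted p under 0.05, where 21.4% of tested genes did. DESeq2 called 1, FOXO1, and limma 0. The log2 fold change of FOXO1 was −2.01 (SE 0.62, edgeR adjusted p = 0.0793), with an interval of −3.39 to −0.63, and all AA libraries lay below all Igf-1 libraries. FOXO1 passed without CTR replicate 3 (adjusted p = 0.0436) and without AA replicate 3 (adjusted p = 0.0307), with log2 fold changes of −1.98 and −2.88. These were 2 of 9 edgeR fits with a library left out, and in the others its adjusted p reached 0.233.

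foxo1a was the other gene of the 6 with AA below Igf-1 in every library, where 16.7% of tested genes showed this. Its log2 fold change was −0.54 (SE 0.16, edgeR adjusted p = 0.0655), and the adjusted p of foxo1a was 0.0282 without CTR replicate 3. This was the 1 of 9 edgeR fits with a library left out in which foxo1a passed, and its adjusted p reached 0.202 in the others. The values were −0.53 (SE 0.25) for foxo3b, −0.44 (SE 0.32) for foxo6a and −0.23 (SE 0.58) for foxo6b, with adjusted p of 0.259, 0.506 and 0.894 in edgeR. These values were unsteady, and over the alternative count fits they ran from −0.79 to −0.32, from −0.73 to −0.22 and from −0.58 to −0.02. foxo4 stood at 0.0011, with an interval of −0.96 to 0.96, and its sign turned without AA replicate 3 (−0.44), Igf-1 replicate 2 (−0.11) or Igf-1 replicate 3 (−0.18). Both comparisons with CTR use the same CTR libraries, and AA enters the first and last, so their values are given side by side only.

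**Figure D3:**
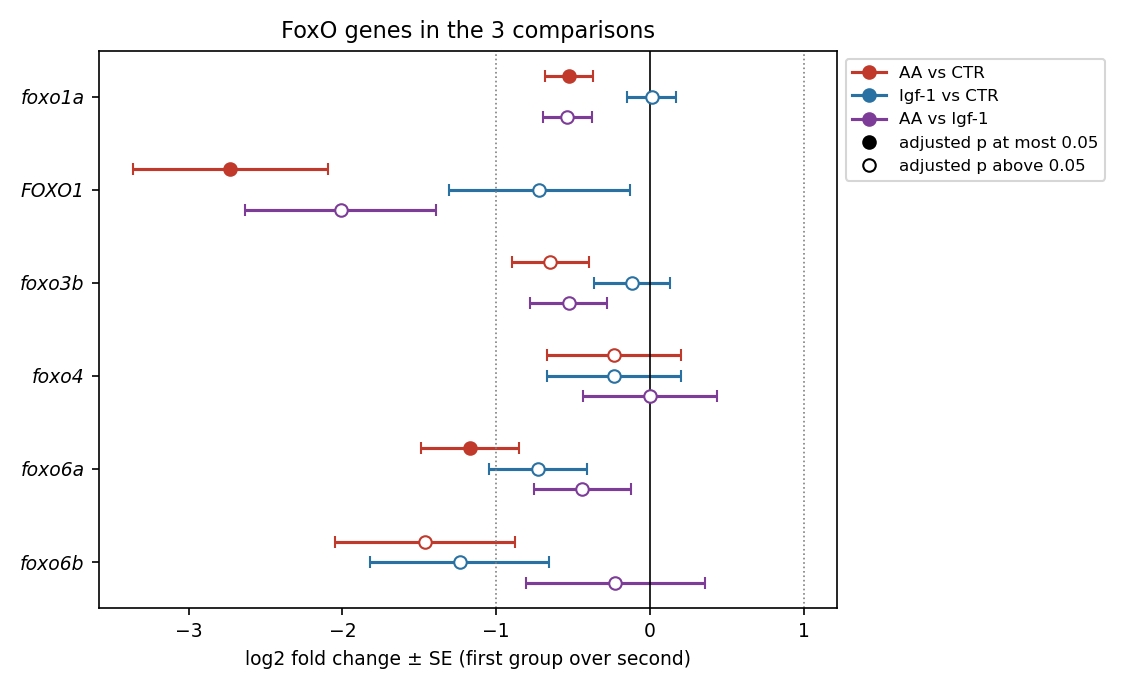
Log2 fold changes of the 6 FoxO genes in the 3 comparisons, with points for the edgeR estimate, filled where the adjusted p was at most 0.05, and bars for 1 SE either side. FOXO1 stands at −2.73 for AA against CTR and −2.01 for AA against Igf-1. For Igf-1 against CTR foxo1a stands at 0.01, foxo3b at −0.12 and foxo4 at −0.24.

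The replicates of a group did not give equal FoxO levels. Taking each library's log2 deviation from its own group mean, all 6 FoxO genes were below the mean in CTR replicate 3 (median −0.38) and in AA replicate 2 (median −0.46), and none was below in CTR replicate 2 (median 0.38) or AA replicate 3 (median 0.50). Between 44.1% and 52.3% of all tested genes lay below their group mean in any library. The other forkhead genes had medians of −0.03, −0.02, 0.23 and 0.14 in these 4 libraries. The Igf-1 libraries differed less, with FoxO medians of 0.14, 0.15 and −0.09.

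The genes took part in this to unequal degrees. FOXO1 deviated by −0.96 in CTR replicate 3, −1.29 in AA replicate 2 and 1.18 in AA replicate 3. foxo4 deviated by −0.85, −0.76 and 0.73 in the same libraries, whereas foxo1a deviated by −0.31, −0.11 and 0.03. The spread within groups was thus wide for FOXO1 and foxo4 and narrow for foxo1a. Without CTR replicate 3 and AA replicate 2 together, FOXO1 was at −2.61, foxo6a at −1.14 and foxo1a at −0.60 for AA against CTR, and FOXO1 at −1.55 for AA against Igf-1. These libraries were picked after seeing that the same genes were low in them, which narrows the spread by construction, so no p-value is read from that fit.

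**Figure D4:**
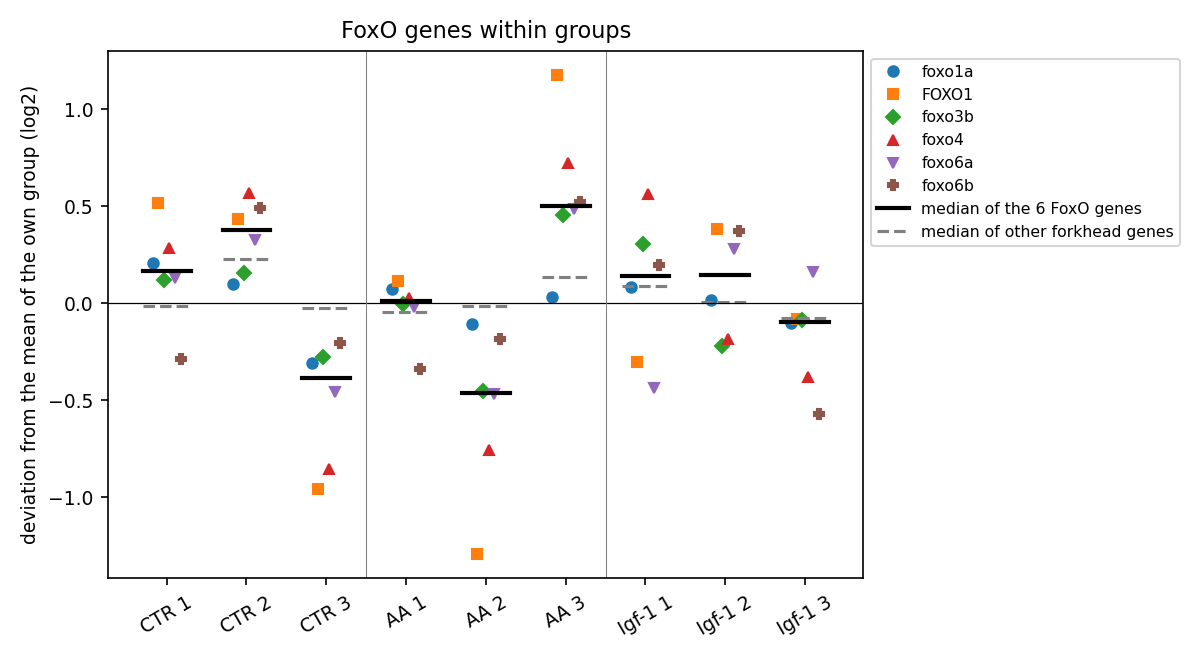
Log2 deviation of each FoxO gene from its group mean in each of the 9 libraries, with the other forkhead genes shown by their median. All 6 FoxO genes lie below 0 in CTR replicate 3 and AA replicate 2 and above 0 in CTR replicate 2 and AA replicate 3.

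Upstream of the FoxO proteins, 23 of 24 genes from the insulin and Igf receptors to Akt and its relatives were tested. For AA against CTR, 2 fell and 0 rose past both thresholds, where 3.79% of all tested genes fell and 4.83% rose. The list median was 0.11. trib3, a pseudokinase that binds Akt, fell from 7000, 8766 and 11466 normalized counts in CTR to 2977, 3828 and 3063 in AA, with a log2 fold change of −1.46 (SE 0.22, edgeR adjusted p = 0.00187). SGK1, an Akt-related kinase that also phosphorylates FoxO proteins, had 3572, 3851 and 4165 in CTR and 2313, 2331 and 895 in AA, with a log2 fold change of −1.07 (SE 0.31, edgeR adjusted p = 0.0406). The SGK1 value rested on AA replicate 3, without which it was −0.74, and its adjusted p was between 0.0189 and 0.0928 over the libraries left out, passing both thresholds without AA replicate 2 only. akt1 itself, with 4018, 4457 and 3606 in CTR and 6083, 5560 and 7428 in AA, was higher by adjusted p alone, at 0.66 (SE 0.15, edgeR adjusted p = 0.0165). The insulin receptor gene insra was at −0.48 (SE 0.13, edgeR adjusted p = 0.0277) and SGK3 at −0.82 (SE 0.21, edgeR adjusted p = 0.0267).

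Of 30 partners and modifiers of FoxO proteins, all tested, 1 rose and 0 fell for AA against CTR, with a median of −0.04. Among all tested genes 4.83% rose and 3.79% fell past both thresholds. The gene that rose was xpo1a, one of the exportin genes, the exporter that takes FoxO and many other proteins out of the nucleus. Its normalized counts were 1007, 863 and 1220 in CTR, 2309, 2453 and 2471 in AA, and 830.2, 871 and 816 in Igf-1. AA stood apart from both other groups, at a log2 fold change of 1.23 (SE 0.16, edgeR adjusted p = 0.000687) against CTR and 1.52 (SE 0.16, edgeR adjusted p = 0.000745) against Igf-1. prmt1, which methylates FoxO1 in mammals, was at 0.85 (SE 0.15, edgeR adjusted p = 0.00424) and usp7, which removes ubiquitin from FoxO proteins, at 0.55 (SE 0.12, edgeR adjusted p = 0.0127), both under the fold threshold.

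Among known FoxO targets of protein breakdown, 25 of 26 genes were tested, 2 rose and 1 fell for AA against CTR, and the median was −0.33. The shares over all tested genes were 4.83% upward and 3.79% downward. The atrophy ligases went opposite ways. fbxo32, which encodes atrogin-1, had 2345, 2222 and 2515 normalized counts in CTR, 1074, 1012 and 987 in AA, and 1846, 1726 and 1168 in Igf-1, and fell by 1.21 on the log2 scale from CTR to AA (SE 0.18, edgeR adjusted p = 0.00168). trim63a, a MuRF1 gene, had 917, 823 and 1393 in CTR, 2674, 4378 and 2954 in AA, and 1401, 2083 and 2124 in Igf-1, and rose by 1.68 (SE 0.27, edgeR adjusted p = 0.00236). ulk1a, which encodes a kinase that starts autophagy, rose by 1.49 (SE 0.18, edgeR adjusted p = 0.000474), from 1347, 1084 and 943 to 2635, 3255 and 3619. Groups did not overlap between CTR and AA in any of these 3 genes. These genes were named for passing in these same libraries, so the lack of overlap adds no separate support. The same holds for xpo1a above and for ANGPTL4, tnfsf10 and FOXK2 below, also picked on values of these libraries. The calls of fbxo32, trim63a and ulk1a held with each library left out.

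The metabolic targets, 15 of 19 tested, had 0 rises and 1 fall for AA against CTR, and their median was −0.28. Rises made up 4.83% and falls 3.79% of all tested genes. ANGPTL4 (ENSSAUG00010009976), which encodes a secreted inhibitor of lipoprotein lipase, had 30814, 38624 and 40533 normalized counts in CTR, 13225, 17449 and 9938 in AA, and 8744, 10151 and 16208 in Igf-1. It fell in AA by 1.44 on the log2 scale (SE 0.27, edgeR adjusted p = 0.0056). It was also the only gene of the target lists called for Igf-1 against CTR, at −1.65 (SE 0.27, edgeR adjusted p = 0.0448), but leaving out a library ended that call in 7 of 9 cases, with ANGPTL4 adjusted p of 0.0659, 0.165 and 0.0623 without CTR replicates 1, 2 and 3, 0.195, 0.301 and 0.0576 on omitting Igf-1 replicates 1, 2 and 3, and 0.103 on omitting AA replicate 1. Both treated groups lay below CTR in every library. The second copy, angptl4 (ENSSAUG00010003243), was at −0.75 (SE 0.18, edgeR adjusted p = 0.0194) in AA and −0.82 (SE 0.18, edgeR adjusted p = 0.108) in Igf-1.

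Of the 24 targets of cell cycle arrest, survival and stress, all tested, 0 rose and 3 fell for AA against CTR. Of all tested genes 4.83% rose and 3.79% fell past both thresholds. By adjusted p alone 7 of the 24 were lower, where 7.74% of all tested genes were, and the list median was −0.32. bcl6aa, a gene for a transcriptional repressor, was at −1.09 (SE 0.20, edgeR adjusted p = 0.00482) and at −0.90 without AA replicate 2. cdkn1a, which encodes the cell cycle inhibitor p21, was at −1.08 (SE 0.29, edgeR adjusted p = 0.0291), from 3992, 2355 and 2415 normalized counts to 1948, 1037 and 1160. Its call was lost without CTR replicate 1 (−0.79, edgeR adjusted p = 0.107), AA replicate 2 (−0.91, adjusted p = 0.0839), AA replicate 3 (−0.97, adjusted p = 0.0845) or Igf-1 replicate 2 (−1.08, adjusted p = 0.0519). The death ligand gene tnfsf10 (ENSSAUG00010017235) was at −1.13 (SE 0.32, edgeR adjusted p = 0.0365), and 7 of 9 fits with a library left out lost that call, with adjusted p between 0.0422 and 0.103 in all 9. The other copy, tnfsf10 (ENSSAUG00010024709), had 502, 461 and 592 normalized counts in CTR, 715, 460.3 and 949 in AA, and 946, 846 and 837 in Igf-1. Its log2 fold change was 0.45 (SE 0.25, edgeR adjusted p = 0.28) for AA and 0.76 (SE 0.25, edgeR adjusted p = 0.315) for Igf-1 against CTR, with all Igf-1 libraries above all CTR libraries. ccng2, a cyclin gene of the resting cell, was at −0.97 (SE 0.18, edgeR adjusted p = 0.00534), just under the fold threshold.

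Of 40 other forkhead genes 18 were tested, and 0 passed both thresholds in any comparison in edgeR. At an unadjusted p under 0.05 there were 4 of 18 for AA against CTR, where 28.2% of all tested genes passed. There was 1 for Igf-1 against CTR (9.11% of all tested genes) and 3 for AA against Igf-1 (21.4%). DESeq2 called 1, 0 and 1 in the same order. For AA against CTR edgeR called 1 without CTR replicate 1, AA replicate 2 or Igf-1 replicate 3. For AA against CTR their median was −0.30, and FOXK2 was the 1 gene that passed on adjusted p alone, at −0.97 (SE 0.13, edgeR adjusted p = 0.000914). FOXK2 encodes a forkhead factor that in mammals represses autophagy genes. It had 3566, 4121 and 4068 normalized counts in CTR, 1858, 2109 and 2045 in AA and 2897, 2926 and 3189 in Igf-1, 3 ranges that did not overlap. The list ran from −1.09 to 2.24 for AA against CTR. foxm1, at low counts, had 11.4, 12.1 and 11.6 in CTR, 36.3, 49.6 and 81.2 in AA, and 16.6, 13.9 and 0 in Igf-1. With all libraries in edgeR, 0 genes of this list were higher in AA than in CTR by adjusted p. For AA against Igf-1 foxm1 was at 2.44 (SE 1.00, edgeR adjusted p = 0.185). There DESeq2 (2.49, adjusted p = 0.0478) and limma on log2(FPKM + 0.1) (1.52, adjusted p = 0.0347) called it. No edgeR fit with a single library left out did, with foxm1 adjusted p between 0.162 and 0.387. Set against the 8.62% of all tested genes that passed for AA against CTR, the calls in these lists (2 of 23, 1 of 30, 3 of 25, 1 of 15, 3 of 24 and 0 of 18) gave shares on both sides of it. By adjusted p alone, 6 of 25, 3 of 15 and 7 of 24 genes of the 3 target lists were lower in AA, against 7.74% of all tested genes, and 2, 0 and 0 were higher. The list from the receptors to Akt had 4 of 23 lower and 1 higher. The partners had 1 of 30 lower and 4 higher, and the other forkhead genes 1 of 18 lower and 0 higher. The share of lower genes to set beside these is the same 7.74%. No share over all tested genes is given for the genes higher by adjusted p alone. The directions are therefore not weighed against each other. The lists were chosen with earlier results known, so these counts carry no test.

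For Igf-1 against CTR the 6 lists held the single call of ANGPTL4, where 0.260% of all tested genes passed both thresholds. The list medians lay between −0.16 and −0.03. fbxo32 was at −0.58 (SE 0.18), trim63a at 0.84 (SE 0.26) and ulk1a at 0.67 (SE 0.17), with edgeR adjusted p of 0.266, 0.277 and 0.167. For AA against Igf-1 the lists held 2 calls, where 4.33% of all tested genes passed both thresholds. One was xpo1a, given above, and the other tnfsf10 (ENSSAUG00010017235), at −1.45 (SE 0.32, edgeR adjusted p = 0.0208) from 130, 191 and 219 normalized counts in Igf-1 to 83.8, 47.6 and 66.7 in AA. The tnfsf10 call was lost without AA replicate 2 or 3 or Igf-1 replicate 2 or 3, where the adjusted p was 0.0587, 0.0532, 0.0841 and 0.0998.

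**Figure D5:**
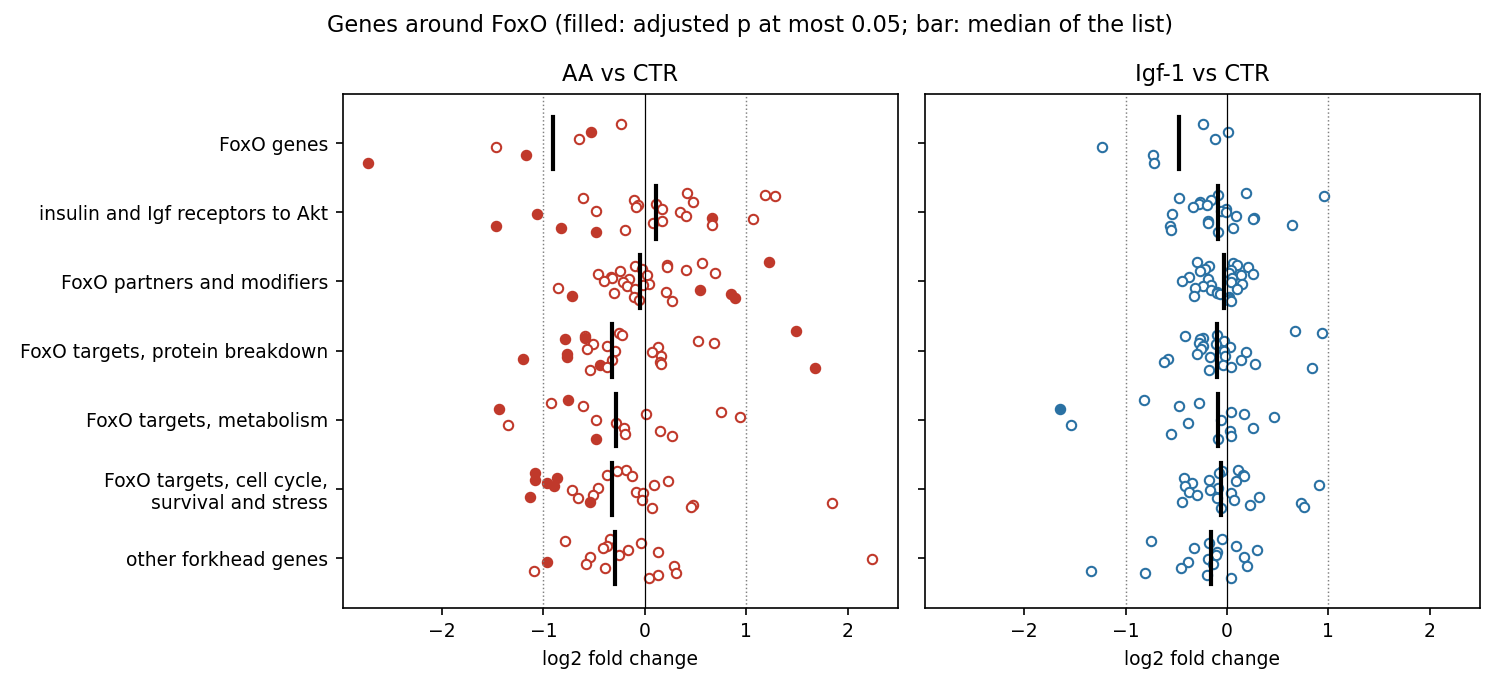
Log2 fold changes for AA against CTR and Igf-1 against CTR of every tested gene in the FoxO genes and in the lists around them, filled where the adjusted p was at most 0.05, with a line for the median of each list. The FoxO genes have medians of −0.91 for AA and −0.48 for Igf-1, and the target lists have medians between −0.33 and −0.28 for AA.

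Genes whose log2 normalized counts followed each FoxO gene most closely over the 9 libraries were sought among 11742 genes, as a description. Pearson's r mixes differences between groups with shared deviations of single libraries, and with 9 points high values occur for many genes. foxo1a was followed most closely by tiam1b (r = 0.974), FOXO1 by rxrbb (r = 0.985), SCN4A (r = 0.983) and cert1a (r = 0.979), and foxo3b by SECISBP2L (r = 0.977). The closest to foxo4 were dgkh (r = 0.990), nisch (r = 0.983) and ppip5k1a (r = 0.980), to foxo6a irf2bpl (r = 0.953), and to foxo6b FAM110A (r = 0.973) and hbegfa (r = 0.957). prkaa1, which encodes a catalytic subunit of the kinase AMPK that phosphorylates FoxO3 in mammals, came next for foxo6b (r = 0.953). The r values of foxo6b rest on only 11 to 65 estimated counts per library.

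The gene that RefSeq names foxo3a averaged 0.0981 FPKM, below foxo6b and at percentile 6.93 of all tested genes. Its normalized counts were 11.4, 19.8 and 5.78 in CTR, 10.01, 9.31 and 6.07 in AA, and 24.4, 25.0 and 28.9 in Igf-1. All Igf-1 libraries lay above all others, where 9.35% of tested genes had Igf-1 wholly above CTR and none of the 6 genes of the rule did. The test did not resolve this at so low a count: the log2 fold change was 1.07 (SE 0.73, edgeR adjusted p = 0.796) for Igf-1 against CTR and −1.62 (SE 0.75, edgeR adjusted p = 0.247) for AA against Igf-1.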

How the data were processed

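The study made stranded poly(A) libraries, mapped paired reads with HISAT2 to an Ensembl genome (build not given in the sources used here) and estimated expression with StringTie. The authors deposited an estimated count per gene, which the file calls normalized although column totals differ, and FPKM tables, in which CTR values are given for some mRNAs only. CTR FPKM was recomputed from the counts with each gene's ratio of FPKM to count. Among 1296 genes whose CTR FPKM is deposited, 96.3% of values came within 1%. The deposited fold changes and p-values were not used.

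Counts were fitted in edgeR 4.0.16 (R 4.3.3), all 3 groups together, after filterByExpr (17687 genes) and TMM scaling, with the quasi-likelihood test and Benjamini-Hochberg adjustment over all genes tested. The normalized count is the count over the effective library size, times the mean effective size. SE is the log2 fold change over the root of F, and 95% intervals are 2.22 SE. The study names 3 independent cultures without tying libraries to them. The design had been written for counts, and estimated counts were used. limma 3.58.1 ran on log2(FPKM + 0.1), DESeq2 1.42.0 on the counts. Tested on simulated data for AA against CTR (17294 genes), the adjusted p recovered 96.1% of genes changed by 2 on the log2 scale and 18.4% of those changed by 1, with 2 false calls. Only well-counted genes were changed and a single dispersion served all genes. These rates therefore do not extend to scarce genes such as foxo6b and foxo3a, or to genes of wide spread such as FOXO1 and foxo4.

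The FoxO genes and all lists were chosen with earlier results of these data known. Named were all FoxO genes, from each list and comparison some of the 3 genes with the smallest p, and the closest of the 3 genes by Pearson's r with a mean normalized count of at least 50. SGK1, cdkn1a, tnfsf10 (both copies) and ccng2, where outside that rule, and foxo3a and csf1ra were added after their values were seen. Alternatives were RLE scaling, DESeq2, no filter, a fit of 2 groups, a replicate block, counts divided by 4, limma with 2 pseudocounts, adjusted p alone and each library left out. No sequence table was used, so promoter motifs and protein sites were not analysed here.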

Additional observations from a re-analysis of the deposited data

How the results depend on the processing

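The 2 FoxO genes called for AA against CTR became 1 in the fit of only the 2 groups compared and 1 with limma on log2(FPKM + 0.1), and 0 with a replicate block and with limma on log2(FPKM + 1). With 1 library left out the number ran from 0 to 2, being 0 without CTR replicate 1, CTR replicate 2 or AA replicate 1. It was 2 with RLE, DESeq2, no filter and counts divided by 4, and 3 with no fold threshold. For Igf-1 against CTR it was 0 under every alternative run. For AA against Igf-1 it was 0, but 1 with DESeq2 and 0 to 1 with a library left out. The gene was FOXO1 each time. No call is read from the fit without CTR replicate 3 and AA replicate 2 together, an alternative chosen after seeing the data, on these genes. In count fits the log2 fold change of FOXO1 for AA against CTR ran from −3.60 to −2.29 and that of foxo6a from −1.45 to −0.96. Values that turned sign all belonged to foxo4 and foxo1a. For AA against CTR foxo4 was at 0.058 without CTR replicate 2 and 0.062 without AA replicate 2, with a range of −0.67 to 0.06 over single libraries left out, and for Igf-1 against CTR at 0.0572 without CTR replicate 2 (range −0.57 to 0.06). For AA against Igf-1 foxo4 was at −0.44 without AA replicate 3, −0.11 without Igf-1 replicate 2 and −0.18 without Igf-1 replicate 3 (range −0.44 to 0.34). For Igf-1 against CTR foxo1a was at −0.0006 with RLE, −0.0007 with DESeq2, −0.13 without CTR replicate 3, −0.03 without Igf-1 replicate 1 (range −0.13 to 0.12) and −0.13 without CTR replicate 3 and AA replicate 2 together. Of 371 values of single genes under alternatives, foxo3a included, 341 kept direction and call, 15 lost and 4 gained a call and 11 turned sign. The tally includes the fit chosen after seeing the data, so it carries no test. The causes were not tested.

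The replicate numbers showed no steady pairing of libraries, since same-numbered deviations correlated at −0.39 to 0.22 between groups. For CTR and Igf-1 the same-numbered values were 0.22, −0.0049 and 0.19. Such correlations cannot decide on pairing, because the deviations sum to 0 within each group of 3. Some libraries with other numbers correlated more (CTR replicate 3 with AA replicate 2 at 0.40, CTR replicate 2 with AA replicate 3 at 0.31). Shared cultures, under these or other numbers, cannot be told from these data, and the fits treat libraries as independent. With the replicate block, FOXO1 had an adjusted p of 0.0607 and foxo6a of 0.083 for AA against CTR. Over the whole table, 1525 genes passed for AA against CTR and 854 with limma on log2(FPKM + 1), 765 passed for AA against Igf-1 and 448 with that alternative, 489 without Igf-1 replicate 2 and 437 without Igf-1 replicate 3. For Igf-1 against CTR the 46 genes became 208 with DESeq2, 21 in the fit of 2 groups, 0 with the block, and as few as 1 without CTR replicate 2. Depth limits foxo6b and foxo3a most, and foxo6b could not be fitted with counts divided by 4.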
